A study of Mus musculus with 12 samples.

Results

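The rapamycin-resistant line RR1, kept in the drug, was set against the sensitive cells it came from, given vehicle. Its 8 arrays, of 12 in the series, were chosen by sample title: 4 of resistant cells in rapamycin (RR_Rap) and 4 of sensitive cells with DMSO (RS_DMSO). RR_Rap is the RR1 line, obtained by growing BC3H1 cells for 6 months in 1 µM rapamycin and kept in that drug. RS_DMSO is BC3H1 itself after 24 h of DMSO. BC3H1 was derived from a brain tumour of a mouse and resembles muscle in some properties, and both groups were grown in DMEM with fetal bovine serum. The remaining 4 arrays, of sensitive cells given 100 nM rapamycin for 24 h (RS_Rap), only add to the estimate of the spread. RR1 is the outcome of 1 selection, and its heritable changes cannot be told apart from the effect of the drug in its medium. Nothing in the labels says that replicates were separate cultures, so the p-values reflect the variation among these samples alone, and part of it may be technical.

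Rapamycin blocks mTORC1, the kinase complex that couples nutrient and growth factor signals, passed on in part through PI3K and AKT, to protein synthesis and cell growth. microRNAs (miRNAs) are short RNAs that lower the translation and stability of the messenger RNAs they pair with. The pairing rests mainly on the seed, bases 2 to 8 from the 5′ end, so miRNAs with the same seed share many predicted targets. A hairpin precursor can give a mature miRNA from each of its strands, and the less abundant one carries an asterisk in the names used here.

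The miRNA seed that carried most of the large rises is shown first, with the seed in capitals and all mature sequences taken from RefSeq (GRCm38.p6). These 6 miRNAs come from 3 loci and all rose in RR_Rap:
miR-17: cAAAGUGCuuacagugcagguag
miR-106a: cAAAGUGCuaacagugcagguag
miR-20a: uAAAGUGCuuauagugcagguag
miR-20b: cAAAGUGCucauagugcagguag
miR-93: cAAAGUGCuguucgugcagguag
miR-106b: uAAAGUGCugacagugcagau

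Against miR-17, and counting from its 5′ end, miR-106a differs by U10A and miR-20a by C1U and C12U. The other 3 differ from it at 2 to 4 of the 21 to 23 positions compared. Whether the array probes tell such close sequences apart was not tested.

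The miRNAs below are those that fell at least 2-fold with a sequence in that set, with miR-221 added because it has the seed and locus of miR-222:
miR-21: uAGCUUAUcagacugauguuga
miR-222: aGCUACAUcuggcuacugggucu
miR-221: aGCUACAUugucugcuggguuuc
miR-22: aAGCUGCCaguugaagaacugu
miR-29a: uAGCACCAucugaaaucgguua
miR-667: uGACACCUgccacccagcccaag
miR-675-5p: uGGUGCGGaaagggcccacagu
miR-690: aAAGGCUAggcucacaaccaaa

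Values below are log2 ratios of a sample (labelled Hy3) to a common RNA pool (labelled Hy5), normalized by loess within each array. The spot intensities are those of Agilent Feature Extraction as deposited. A change is the RR_Rap mean minus the RS_DMSO mean, with its standard error from limma. A probe was called at a Benjamini-Hochberg adjusted p under 0.05 over 417 probes for mouse miRNAs. Of these, 97 were called (23.3%), 54 higher (12.9%) and 43 lower (10.3%). In 106 probes (25.4%) the 4 arrays of one group did not overlap with the 4 of the other, and 88 of those were called. At least 2-fold changes were called for 16 probes (3.84%), 8 higher and 8 lower, while 62 of the 97 calls were below 1.5-fold. The median change of all probes was -0.01. The split depended on the scaling: it was 74 higher against 28 lower when loess was left out, 38 against 17 from the Hy3 channel alone, and 32 against 44 in the authors' deposited value table.

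Median raw Hy3 signals were 114 to 118 on the RR_Rap arrays and 116 to 141.5 on the RS_DMSO arrays. Median Hy5 signals were 73 to 77.75 on the RR_Rap arrays and 74 to 98 on the RS_DMSO arrays, below the median Hy5 local background on every one of the 8 arrays, so many ratios rest on a dim pool signal. Signal was judged against 7 negative-control probes: a probe stood above them when its Hy3 signal passed the highest of the 7 on at least 3 arrays of either group. Of 205 such probes 79 were called (38.5%), and of the other 212, 18 (8.49%). Of the 79, 6 passed through RR_Rap alone and 7 through RS_DMSO alone, so that they missed the 3-array rule in the other group. There some, such as miR-374, miR-25 and miR-455, passed on 2 arrays. Others, such as miR-130b and miR-146a, passed on 0, and their level in that group was not told apart from the negative controls. RS_DMSO 3 stood apart, with 49 flagged mouse spots against 0 to 9 on the other 7 arrays and with correlations of 0.574 to 0.709 with its own group. Its highest negative control read 304.5 in Hy3, against 131.25 to 162 on the other 7. Only 131 of its mouse probes passed, against 178 to 222, so the 3-array rule was harder to meet in RS_DMSO. Without RS_DMSO 3, 89 of the 97 calls held and 13 further probes were called, 4 higher and 9 lower. The 8 calls lost were those of miR-718, miR-742, miR-423-3p, miR-455, miR-124, miR-34a, miR-532-5p and miR-202-3p. Each slide held 1 array and each group was scanned in a run of its own, so scan order and group cannot be told apart.

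**Figure D1:**
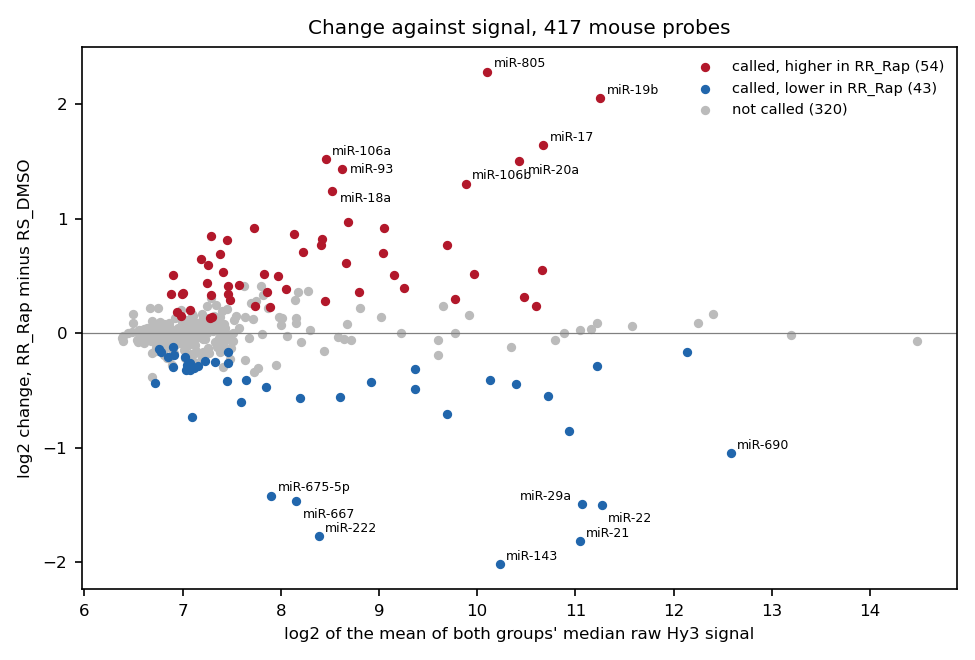
Log2 change, RR_Rap minus RS_DMSO (vertical axis), against the log2 of the mean of both groups' median raw Hy3 signals (horizontal axis) for 417 mouse probes, with names for the 16 called at 2-fold or more. The 54 called higher and the 43 called lower span dim and bright probes, and most grey points, not called, lie close to 0.

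The clearest rise was in the 3 related clusters that encode the miR-17 seed. miR-17~miR-92 is a polycistron induced by MYC that promotes proliferation and survival. miR-106a~miR-363 is its relative on chromosome X, and miR-106b~miR-25 lies in an intron of Mcm7, a gene of the DNA replication helicase. Of 9 probes for miR-17~miR-92 strands 7 rose and 0 fell, with a median change of 0.97. Of 6 for miR-106a~miR-363 4 rose, but 2 of these, miR-19b and miR-92a, are encoded in both clusters and their probes are counted in each. Of 5 for miR-106b~miR-25 4 rose. By count, 7, 4 and 4 also rose without RS_DMSO 3, and 7, 3 and 2 in the authors' deposited value table. The 5 that were not called (miR-18a*, miR-19a*, miR-20b*, miR-363 and miR-93*) lay below the negative controls, with changes of -0.25 to 0.03. So did miR-106b*, which was called 1.27-fold higher and lost its call in the value table.

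miR-19b, which with miR-19a drives much of the cluster's oncogenic activity in mouse lymphoma, had the largest rise of the 3 clusters. Its ratios were 0.80, 0.71, 0.66 and 0.67 in RR_Rap, against -1.39, -1.29, -1.35 and -1.33 in RS_DMSO. The groups lay far apart and each was narrow: the change was 2.05 ± 0.06, 4.15-fold (limma adjusted p = 4.94e-11). miR-17 had 0.58, 0.52, 0.56 and 0.50 in RR_Rap, against -1.11, -1.10, -1.07 and -1.13 in RS_DMSO. Its change was 1.64 ± 0.05, 3.13-fold (limma adjusted p = 4.94e-11). No RR_Rap array of either miRNA came near an RS_DMSO array.

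miR-20a, from the same transcript, had 0.66, 0.60, 0.61 and 0.59 in RR_Rap, against -1.02, -0.80, -0.71 and -1.03 in RS_DMSO, a 2.84-fold rise. miR-18a, which has a seed one base away from that of miR-17 (A4G in the mature sequence), rose 2.36-fold. miR-19a differs from miR-19b by C11U and rose less, by 0.97 ± 0.08 or 1.96-fold (limma adjusted p = 1.05e-06). miR-92a, whose seed is that of miR-25, rose 1.57-fold, with 0.08 to 0.35 in RR_Rap and -0.65 to -0.26 in RS_DMSO, where it lay below the negative controls on all 4 arrays. The 5 strands that rose and are encoded at this locus alone changed by unequal amounts on this scale, 0.53 to 1.64. The mature strands of the 8 probes matched to this locus lie within 813 bases of chromosome 14, from 115043684 to 115044496.

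The 5 seed-sharing miRNAs besides miR-17 differed in how firmly they were measured. miR-106a had 0.73, 0.61, 0.70 and 0.69 in RR_Rap, against -0.89, -0.32, -1.44 and -0.69 in RS_DMSO. All 4 RR_Rap arrays stood higher, and the RS_DMSO arrays were wide apart: the rise of 1.52 ± 0.17 (limma adjusted p = 3.77e-05) was 1.32 without RS_DMSO 3. miR-93 had 0.46, 0.31, 0.46 and 0.39 in RR_Rap, against -0.96, -0.79, -1.52 and -0.87 in RS_DMSO, a rise of 1.44 ± 0.12. miR-106b, its neighbour in Mcm7, had 0.76, 0.74, 0.71 and 0.70 in RR_Rap, against -0.68, -0.48, -0.40 and -0.77 in RS_DMSO, a rise of 1.31 ± 0.09 (limma adjusted p = 4.55e-07). miR-20b was the weakest of the 6. It had 0.47 to 0.54 in RR_Rap and -0.53, -0.18, 0.48 and -0.56 in RS_DMSO, so that RS_DMSO 3 overlapped with RR_Rap. Its change was 0.72 ± 0.18 with that array and 0.94 without it (limma adjusted p = 0.0132 and 9.1e-06), and its call did not survive median centring, the absence of loess or the value table.

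**Figure D2:**
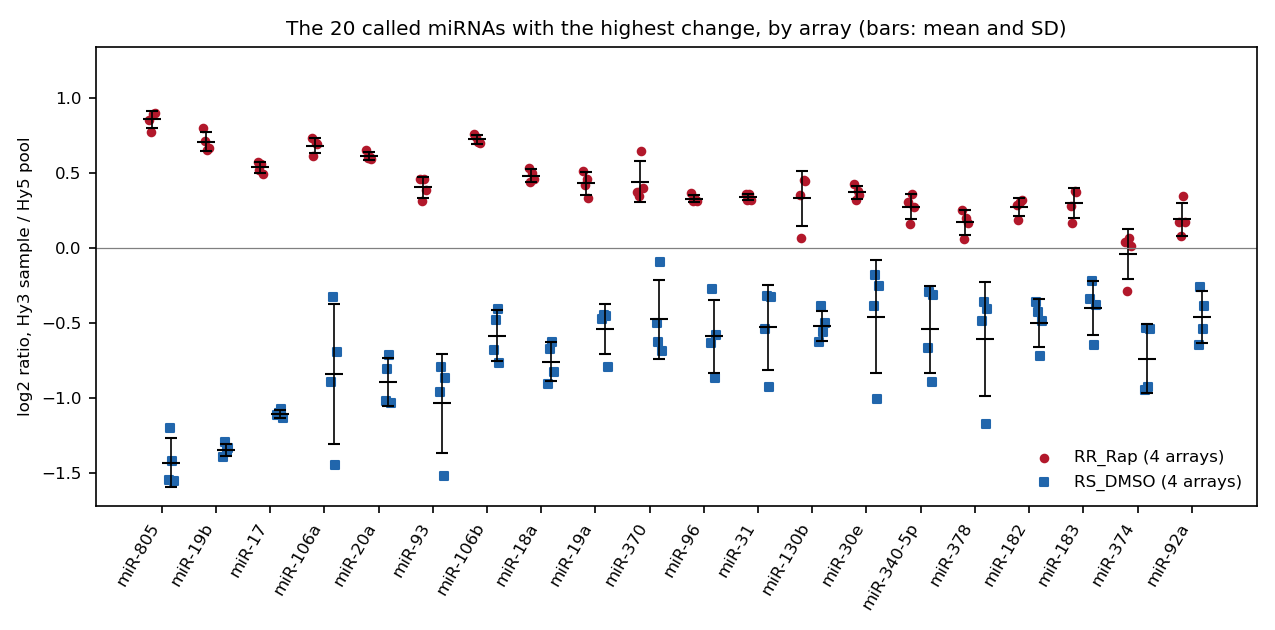
Log2 ratio of Hy3 sample to Hy5 pool (vertical axis) on each array for the 20 called miRNAs with the highest change whose arrays do not overlap, RR_Rap as red circles left of RS_DMSO as blue squares, bars giving the mean and SD of 4 arrays. RR_Rap values cluster more tightly than RS_DMSO values for most of the 20, as for miR-106a, with an SD of 0.05 in RR_Rap and 0.47 in RS_DMSO.

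Over all mouse probes with a RefSeq match (193, of which 73 were called), 148 seeds occurred, and 10 seeds were shared by at least 2 different called miRNAs. In 9 of these the called members went one way, up in 6 families and down in 3. The miR-17 seed had 6 of 6 members higher. The miR-19 seed had both members higher. The seed AUUGCAC of miR-92a, miR-25 and miR-32 had 3 of 5 higher, with miR-92b at 0.22 ± 0.10 and miR-363 at 0.03 ± 0.05 not called. miR-25 rose 1.51-fold (0.37 to 0.60 in RR_Rap, -0.46 to 0.18 in RS_DMSO) and lost its call in the value table. miR-32 rose 1.35-fold, stood above the negative controls on 1 RS_DMSO array and lost its call with the sample channel alone and when loess was left out.

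The seed AGUGCAA of the miR-130 and miR-301 family had 3 of 4 members higher. miR-130b had 0.35, 0.07, 0.46 and 0.45 in RR_Rap, against -0.63, -0.39, -0.56 and -0.50 in RS_DMSO, a 1.80-fold rise (limma adjusted p = 7e-06), with all 4 RS_DMSO arrays below the negative controls. miR-301a rose 1.53-fold, a call missing when loess was left out and in the value table, and miR-130a 1.25-fold. Their sequences show how far apart members of a seed family can be, since miR-301a differs from miR-130b at 11 of 22 positions and miR-130a at 2:
miR-130b: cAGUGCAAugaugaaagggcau
miR-130a: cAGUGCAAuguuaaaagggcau
miR-301a: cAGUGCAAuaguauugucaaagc

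Clustered miRNAs outside the miR-17 relatives rose as well. miR-183, miR-96 and miR-182 are made from 1 transcript, lie within 3771 bases of chromosome 6 (30165962 to 30169732) and are best known from sensory organs. Their mature strands each have a different seed:
miR-96: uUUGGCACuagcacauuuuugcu
miR-182: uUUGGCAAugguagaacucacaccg
miR-183: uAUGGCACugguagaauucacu

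miR-96 had 0.37, 0.31, 0.33 and 0.31 in RR_Rap, against -0.63, -0.27, -0.86 and -0.58 in RS_DMSO, 1.89-fold higher (limma adjusted p = 4.46e-05). miR-182 was 1.71-fold higher and miR-183 1.62-fold, both without overlap between the groups, and miR-183* stood at 0.08 ± 0.10 and was not called. With the sample channel alone only miR-96 of the 3 kept its call.

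In the miR-30 family, abundant in many differentiated tissues, 4 of 7 probes rose and 0 fell. The called share was 57.1%, against 23.3% of all probes and 38.5% of those above the negative controls, where 6 of the 7 lay. miR-30e had 0.43, 0.32, 0.38 and 0.35 in RR_Rap, against -0.38, -0.18, -1.004 and -0.25 in RS_DMSO. It rose 1.78-fold with RS_DMSO 3 and 1.56-fold without it. miR-30c rose 1.43-fold (limma adjusted p = 5.15e-05), miR-30b 1.23-fold and miR-30e* 1.34-fold (0.42, and 0.26 without RS_DMSO 3), the last a call lost in 6 of the 12 fits with 1 array left out. miR-30a at 0.16 ± 0.12 and miR-30d at 0.07 ± 0.12 were not called. With the sample channel alone 1 of the 7 was called.

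Several single miRNAs rose as well. miR-805, a small RNA of the array's mouse set with no sequence in the RefSeq table used, had the largest change of all 417 probes. Its ratios were 0.86, 0.78, 0.90 and 0.90 in RR_Rap, against -1.54, -1.20, -1.42 and -1.55 in RS_DMSO, a change of 2.29 ± 0.11 or 4.88-fold (limma adjusted p = 9.57e-09). miR-31, a regulator of cell motility and invasion, rose 1.83-fold with 0.32 to 0.36 in RR_Rap and -0.92 to -0.32 in RS_DMSO. miR-340-5p rose 1.76-fold. miR-378, made from the Ppargc1b gene of mitochondrial metabolism, rose 1.71-fold with RS_DMSO 3 and 1.50-fold without it. miR-374 rose 1.62-fold. The metabolic miR-103 and miR-107, which lie in pantothenate kinase genes and differ from each other by G22C, rose 1.17-fold and 1.28-fold, yet without loess, with median or spike-in centring and in the value table neither was called and miR-103 stood below 0 in each.

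The falls were as large, and in the brightest of them the difference was visible in the raw signal. miR-21, raised in many tumours and a repressor of Pdcd4, had -1.29, -1.05, -1.20 and -1.29 in RR_Rap, against 0.49, 0.76, 0.62 and 0.56 in RS_DMSO. All 4 RR_Rap arrays were far below: the change was -1.81 ± 0.07, 3.52-fold (limma adjusted p = 8.68e-10). Its median raw Hy3 signal was 1046 in RR_Rap and 3176 in RS_DMSO. miR-22, enriched in heart and skeletal muscle, had -1.28, -1.11, -1.29 and -1.32 in RR_Rap, against 0.29, 0.31, 0.05 and 0.35 in RS_DMSO, 2.82-fold lower. Its median raw Hy3 signal was 1290 in RR_Rap and 3652 in RS_DMSO.

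miR-143, of the smooth-muscle pair miR-143/miR-145, had the lowest change of all. It had -1.49, -1.10, -1.50 and -1.52 in RR_Rap, against 0.60, 0.71, 0.42 and 0.72 in RS_DMSO, a change of -2.02 ± 0.14 or 4.05-fold (limma adjusted p = 4.55e-07). miR-145, made from the same transcript, fell only 1.15-fold. It lay below the negative controls, with median raw signals of 120.5 in RR_Rap and 140.6 in RS_DMSO, and lost its call in 5 of the 12 fits with 1 array left out. The pair thus stood apart in size, but miR-145 had little signal in either group.

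miR-222 and miR-221 are made together from chromosome X, within 617 bases (19146307 to 19146923), and repress the cell-cycle inhibitor p27. miR-222 had -1.47, -1.02, -1.63 and -1.50 in RR_Rap, against 0.50, 0.46, 0.03 and 0.46 in RS_DMSO, 3.40-fold lower (limma adjusted p = 9.62e-07). miR-221 had -0.23, -0.40, -0.56 and -0.33 in RR_Rap, against 0.27, 0.22, -0.03 and 0.42 in RS_DMSO, 1.51-fold lower. Both fell without overlap and by unequal amounts. The 2 sequences differ at 12 of 23 positions, all of them beyond their common seed.

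The miR-29 family, known for repressing collagens and other matrix genes, had 4 of 6 probes lower and 0 higher. miR-29a had -1.20, -1.05, -1.22 and -1.34 in RR_Rap, against 0.26, 0.18, 0.42 and 0.29 in RS_DMSO, 2.81-fold lower (limma adjusted p = 5.39e-09). miR-29b fell 1.48-fold and its groups overlapped through RS_DMSO 3. Without that array it fell 1.67-fold. miR-29c, which differs from miR-29a only by C10U, stood at -0.06 ± 0.06 with a 95% interval of -0.20 to 0.08 and was not called. Its median raw Hy3 signal was 125.2 in RR_Rap and 143.5 in RS_DMSO, below the negative controls, while that of miR-29a was 1223 in RR_Rap and 3067 in RS_DMSO. miR-29b* and miR-29c* fell 1.18-fold and 1.20-fold, and both calls were lost without loess and with an offset of 10.

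**Figure D3:**
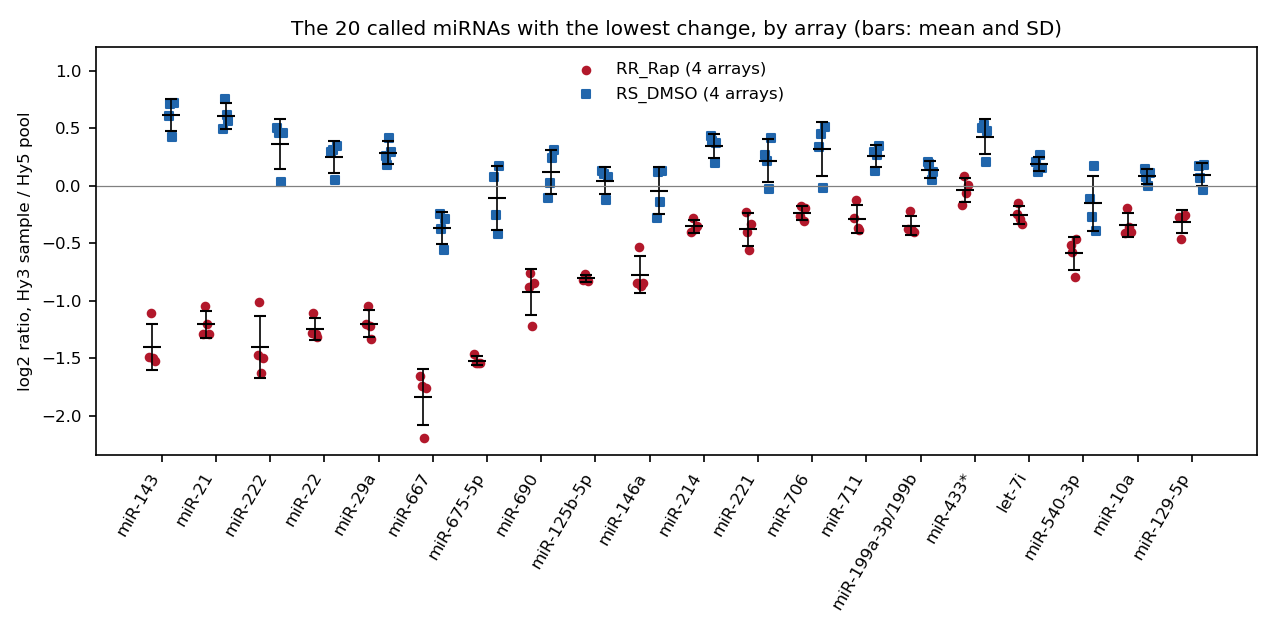
Log2 ratio of Hy3 sample to Hy5 pool (vertical axis) on each array for the 20 called miRNAs with the lowest change whose arrays do not overlap, RR_Rap as red circles left of RS_DMSO as blue squares, bars giving the mean and SD of 4 arrays. For the first 5 of them (miR-143, miR-21, miR-222, miR-22 and miR-29a) all RR_Rap arrays lie at -1.02 or below and all RS_DMSO arrays above 0.

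Other miRNAs of mesenchyme and growth control fell less. miR-125b-5p, a homologue of the worm lin-4, had -0.82, -0.77, -0.81 and -0.83 in RR_Rap, against 0.13, 0.10, -0.13 and 0.08 in RS_DMSO, 1.80-fold lower (limma adjusted p = 6.76e-07). miR-125a-5p, with the same seed, fell 1.33-fold. miR-214, made with miR-199a from the Dnm3os transcript in mesenchyme, had -0.40, -0.28, -0.38 and -0.35 in RR_Rap, against 0.43, 0.39, 0.20 and 0.37 in RS_DMSO, 1.63-fold lower. miR-199a-3p/miR-199b, which targets mTOR itself in human liver cancer cells, fell 1.40-fold (limma adjusted p = 2.33e-05), with -0.40 to -0.22 in RR_Rap and 0.04 to 0.20 in RS_DMSO. miR-199a-5p fell 1.24-fold, its RS_DMSO 3 value of -0.31 lying within the RR_Rap range. miR-155, at -0.05 with all arrays, was called lower at -0.18 without RS_DMSO 3 (limma adjusted p = 0.0298). miR-146a, which damps NF-κB signalling by targeting Irak1 and Traf6, fell 1.66-fold. Its RR_Rap signal, a median of 100.9 against 172.5 in RS_DMSO, lay below the negative controls.

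Falls also included miR-690, miR-706 and miR-711, which were first cloned from mouse embryos. miR-690 was among the brightest probes, with a median raw Hy3 signal of 4251 in RR_Rap and 8028 in RS_DMSO. It had -0.88, -0.76, -1.22 and -0.85 in RR_Rap, against -0.11, 0.03, 0.24 and 0.31 in RS_DMSO, 2.06-fold lower (limma adjusted p = 0.000242). miR-706 fell 1.47-fold, a call lost without background subtraction and with the processed signals, and miR-711 1.46-fold.

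The let-7 family, which restrains growth in part by repressing Ras and MYC messages, was the 1 shared seed whose called members went both ways. Its members differ from let-7a by few bases (let-7c by A19G, let-7b by A17G and A19G, let-7f by G12A):
let-7a: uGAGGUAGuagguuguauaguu
let-7c: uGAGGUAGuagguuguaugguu
let-7b: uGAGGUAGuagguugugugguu
let-7i: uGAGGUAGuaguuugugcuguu
let-7f: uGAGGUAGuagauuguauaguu

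let-7i had -0.25, -0.15, -0.29 and -0.34 in RR_Rap, against 0.20, 0.12, 0.27 and 0.15 in RS_DMSO, 1.36-fold lower (limma adjusted p = 2.05e-05). let-7b had 0.00, -0.12, 0.00 and 0.01 in RR_Rap, against 0.19, 0.35, 0.33 and 0.16 in RS_DMSO, 1.22-fold lower. let-7c fell 1.12-fold, a call lost under 8 of the 16 other settings. let-7f was called 1.23-fold higher, and this call depended on the scaling: it stood at -0.012 with median centring and was lost without loess, with spike-in centring, with the processed or the Hy3 signals alone and in the value table. let-7a, the brightest member with raw Hy3 signals of 9344 in RR_Rap and 9355 in RS_DMSO, stood at -0.02 ± 0.04 with an interval of -0.10 to 0.07. let-7d, let-7e, let-7g and miR-98 were not called, with changes of 0.09 to 0.37, the highest of which, miR-98, was 0.12 without RS_DMSO 3. let-7e stood at 0.14 with that array and -0.13 without it.

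A list of miRNAs with a shared role was mixed. Of 32 miRNAs known to be repressed by MYC, 9 fell and 5 rose, with a median of 0.00 against -0.01 over all probes. The called share was 43.8%, against 23.3% of all probes and 38.5% of those above the negative controls, where 28 of the 32 lay. Those that fell were miR-22, miR-29a, miR-125b-5p, miR-146a, miR-29b, let-7i, miR-125a-5p, let-7b and let-7c. Those that rose were miR-30e, miR-30c, miR-34a, miR-30b and let-7f. Without loess the same list gave 8 lower and 3 higher. miR-34a, the one p53-induced miRNA of 7 probes that was called, had overlapping groups and lost its call in 10 of the 12 fits with 1 array left out.

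Other growth-related families had no call with all arrays and loess. Of 6 probes for the miR-15/16 group, which targets cyclin D1 and Bcl2, 0 passed, with changes of -0.11 to 0.23. Without RS_DMSO 3 miR-15a was called higher at 0.39 (limma adjusted p = 0.0488), against 0.23 with it. miR-16 was bright, at 2328 in RR_Rap and 2241 in RS_DMSO, and stood at 0.04 ± 0.06, with an interval of -0.10 to 0.18. Of 4 probes for miR-99 and miR-100, which target mTOR and Raptor, 0 passed. miR-100 stood at -0.08 ± 0.14, with an interval of -0.38 to 0.23. Without RS_DMSO 3 it was called lower at -0.24 (limma adjusted p = 0.0384). The list had 2 falls with median centring and 1 each with spike-in centring and in the value table. The miR-23/27/24 clusters, the miR-322/miR-503 cluster and the miR-181 family each had 0 of their 7, 7 and 5 probes called. With median centring the miR-322/miR-503 cluster had 2 falls, and the miR-23/27/24 and miR-15/16 lists had 1 each. The miR-322/miR-503 cluster also had 1 rise without loess, and 1 fall each with spike-in centring and in the value table. Over all probes the unadjusted p was under 0.05 for 132 and the limma adjusted p for 97.

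**Figure D4:**
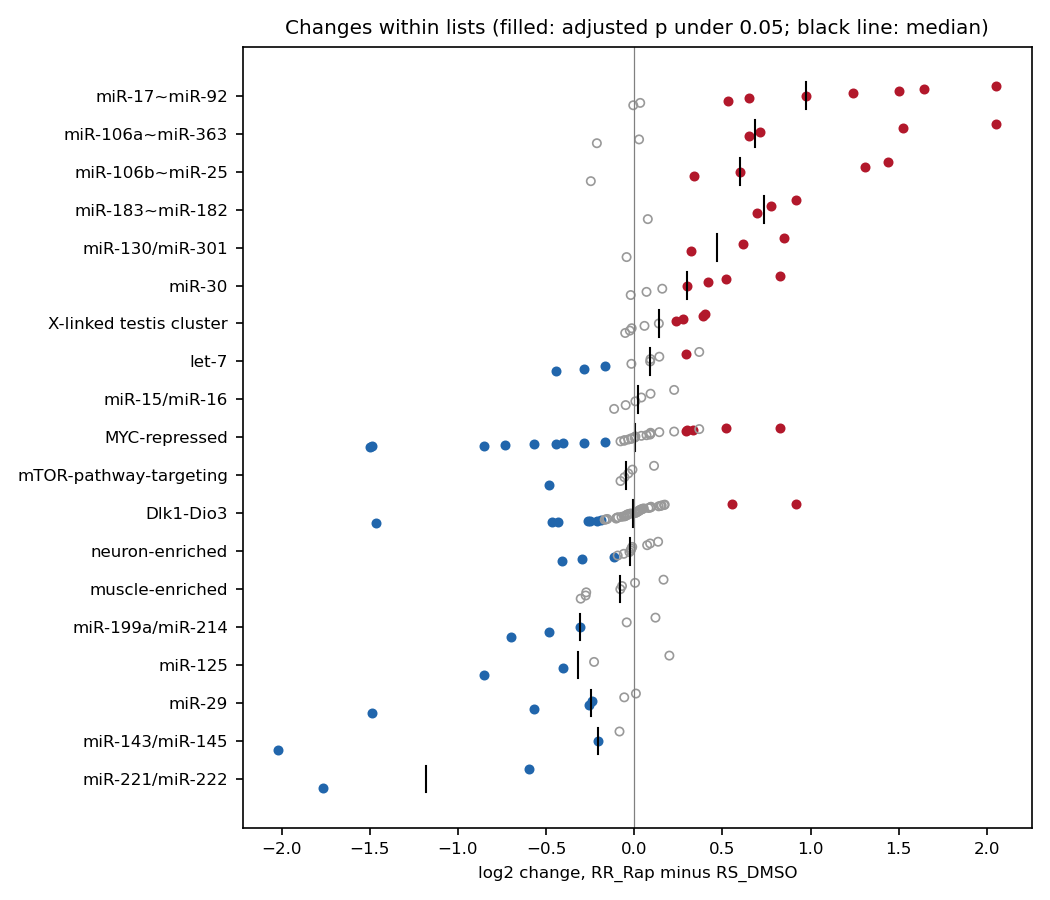
Log2 change, RR_Rap minus RS_DMSO (horizontal axis), of each measured member of 19 lists (rows), with filled points called at a limma adjusted p under 0.05, red higher and blue lower in RR_Rap, and a black line at the median of each list. The 3 miR-17 clusters lie to the right and miR-221/miR-222 to the left, and the MYC-repressed list has members called on both sides.

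Both strands of a hairpin were measured in 71 cases. Both were called in 6, 1 of them in 25 and neither in 40, where 23.3% of all 417 probes were called. In 5 of the 6 the strands went the same way, each with the smaller change in the asterisked strand: 0.53 for miR-17* against 1.64 for miR-17, 0.34 for miR-106b*, below the negative controls, against 1.31 for miR-106b, 0.36 for miR-31* against 0.87 for miR-31, 0.42 for miR-30e* against 0.83 for miR-30e, and -0.24 for miR-29b* against -0.57 for miR-29b. miR-374 was the exception, at 0.70 ± 0.11 for its main strand, against -0.28 ± 0.08 for miR-374* (limma adjusted p = 0.000335 and 0.0197). miR-374* lay below the negative controls. The pairs were picked out after their values were seen.

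Imprinted loci, expressed from 1 parental allele, held both called and uncalled members. miR-675-5p, cut from the H19 RNA, had -1.46, -1.54, -1.54 and -1.55 in RR_Rap, against 0.08, -0.25, -0.42 and 0.17 in RS_DMSO, 2.67-fold lower (limma adjusted p = 0.000683). Its other strand, miR-675-3p, lay below the negative controls at 0.00 ± 0.04. The Dlk1-Dio3 region of chromosome 12 encodes a large array of miRNAs expressed from the maternal allele. Of its 46 probes 7 fell and 2 rose (19.6%, against 23.3% of all probes), and 19 lay above the negative controls. Leaving out RS_DMSO 3 gave 8 falls and 3 rises. miR-667 had -1.65, -1.74, -2.20 and -1.76 in RR_Rap, against -0.25, -0.38, -0.56 and -0.29 in RS_DMSO, 2.76-fold lower (limma adjusted p = 4.68e-05).

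The region did not move as one. miR-433* fell 1.38-fold. miR-540-3p fell 1.35-fold while below the negative controls, a call lost under 5 other settings, among them no loess and the value table. miR-379, miR-134, miR-376a* and miR-341 fell by 1.14-fold to 1.20-fold, and without loess none of these 4 was called and miR-341 stood at 0.025. All of them but miR-134 lay below the negative controls, and miR-134 passed these on 3 RS_DMSO arrays and 0 RR_Rap arrays. miR-370 had 0.38, 0.35, 0.65 and 0.40 in RR_Rap, against -0.50, -0.62, -0.09 and -0.68 in RS_DMSO, 1.89-fold higher (limma adjusted p = 0.000106), a call lost in the value table. miR-494 rose 1.47-fold, with 0.09 to 0.30 in RR_Rap and -0.45 to -0.30 in RS_DMSO, a call lost with the sample channel alone. Without loess the region had 8 probes higher and 2 lower.

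A further set from chromosome X, of miRNAs known from mouse testis, had 4 of 9 probes higher and 0 lower, a list added after the values were seen. The called share was 44.4%, against 23.3% of all probes and 38.5% of those above the negative controls, where 7 of the 9 lay. Of the 9, 1 was called higher without loess, with median or spike-in centring, with the sample channel alone and in the value table. miR-741 rose 1.32-fold (limma adjusted p = 0.000244) and miR-465a-5p 1.31-fold, the second a call lost in 4 of those settings. miR-742 and miR-470 rose 1.21-fold and 1.18-fold. The call of miR-742 was lost without RS_DMSO 3, and miR-470 stood at -0.028 without loess and at -0.22 in the value table. In the Hox clusters, miR-10a fell 1.34-fold (limma adjusted p = 0.000115) and miR-196b rose 1.16-fold with overlapping groups, while miR-10b, miR-196a and miR-615-3p were not called. miR-148b rose 1.33-fold, and its seed relatives miR-152 and miR-148a, at -0.34 ± 0.17 and -0.04 ± 0.07, were not called. The call of miR-148b was lost under 6 of the 16 other settings. Without RS_DMSO 3 miR-152 was called at -0.56, 1.47-fold lower (limma adjusted p = 0.000111). miR-532-5p, of the miR-188~miR-532 cluster, was called at 1.11-fold higher and lost that call in 11 of the 12 fits with 1 array left out.

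The muscle-like nature of the parental line was checked on miRNAs of skeletal and heart muscle. Of 7 probes 2, miR-1 and miR-206, lay above the negative controls. miR-1 had -0.31, -0.26, -0.31 and -0.30 in RR_Rap, against 0.15, 0.31, -0.80 and 0.37 in RS_DMSO. miR-206 had -0.05, 0.22, -0.07 and -0.09 in RR_Rap, against 0.39, 0.61, -0.48 and 0.60 in RS_DMSO. RS_DMSO 3 was the lowest array for both, and the other 3 RS_DMSO arrays lay above all 4 RR_Rap arrays. With all arrays and loess neither was called (limma adjusted p = 0.335 and 0.388). Without RS_DMSO 3 they stood at -0.57 and -0.53, 1.49-fold and 1.44-fold lower (limma adjusted p = 2.91e-06 and 0.000191), and were the only 2 of the 7 called. miR-133a, miR-133b, miR-208, miR-486 and miR-499 lay below the negative controls. With all arrays, 2 of the 7 probes were called lower without loess, with median or spike-in centring and in the value table. The processed signals gave 1 fall and the sample channel alone 0, so the result depended on the scaling as well.

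miRNAs that mark other cell types were checked next. Of 12 neuron-enriched probes 3 were called (25%, against 23.3% of all probes), all lower, and 5 lay above the negative controls. Without loess 2 of the 12 were called higher and 1 lower. miR-129-5p fell 1.33-fold (limma adjusted p = 0.000372), miR-137 1.23-fold, and miR-124, the most neuron-specific of them, 1.08-fold. Both miR-137 and miR-124 lay below the negative controls. The call of miR-137 was lost under 6 of 15 other settings, among them no loess and the value table. miR-124 stood at 0.031 without loess and lost its call in 11 of the 12 fits with 1 array left out. Of 6 blood-cell, 2 endothelial, 9 epithelial and 5 liver and pancreas probes 0 were called, and 2, 0, 1 and 1 of them lay above the negative controls. Without loess 2 blood-cell probes and 1 of liver and pancreas were called higher and 1 epithelial probe lower. The processed signals gave 2 epithelial falls. Without RS_DMSO 3 the epithelial miR-200b* was called lower at -0.44 (limma adjusted p = 0.000254), against -0.29 with it. Of 11 probes linked to pluripotent cells 1, miR-302c, was called lower, at 1.12-fold with overlapping groups, and it stood at 0.07 without loess. Without RS_DMSO 3 miR-291b-5p was called lower as well, at -0.47 (limma adjusted p = 0.0238). Leaving out loess gave 3 of these 11 probes higher and 0 lower. The Sfmbt2 cluster had 0 of 7 probes called, but 2 falls with median centring and 1 in the value table.

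The other 19 calls, 12 higher and 7 lower, had changes of -0.41 to 0.52 and are named here after their values were seen. Those higher were both probes for miR-744 and those for miR-677, miR-342-3p, miR-31*, miR-700, miR-674*, miR-320, miR-190, miR-718, miR-683 and miR-26a_MM1. Those lower were miR-455, miR-708, miR-330*, miR-701, miR-374*, miR-671-3p and miR-423-3p. By its name miR-26a_MM1 is a mismatched copy of the miR-26a probe. It stood at 0.36 ± 0.09 with a raw Hy3 signal of 486.5 in RR_Rap and 405 in RS_DMSO, while the miR-26a probe stood at 0.00 ± 0.05 with 932.6 in RR_Rap and 820.9 in RS_DMSO. Nearest to the threshold were miR-202-3p, called at -0.28 ± 0.09 (limma adjusted p = 0.0482), and miR-501-5p, not called at -0.11 ± 0.04 (limma adjusted p = 0.0511).

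Only the 193 probes with a RefSeq match were grouped by position, so miR-143, miR-145 and miR-741, among others, were left out. Of 29 groups of at least 2 such hairpins within 10000 bases of each other, 12 had at least 2 called strands. In 10 of these all called strands went one way. Probes for miRNAs encoded at 2 loci, such as miR-19b, miR-92a and miR-29b, count in a group at each. The exceptions were both in the Dlk1-Dio3 region. The 16 miRNAs changed at least 2-fold kept their direction and their call under all 16 other settings and with any 1 array left out. Among these settings, no filter and quantile scaling of spot brightness between arrays (Aquantile) left the ratios unchanged, so neither could alter a call. For miR-19b the other settings gave 1.71 to 2.17 and for miR-222 -2.45 to -1.62.

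**Figure D5:**
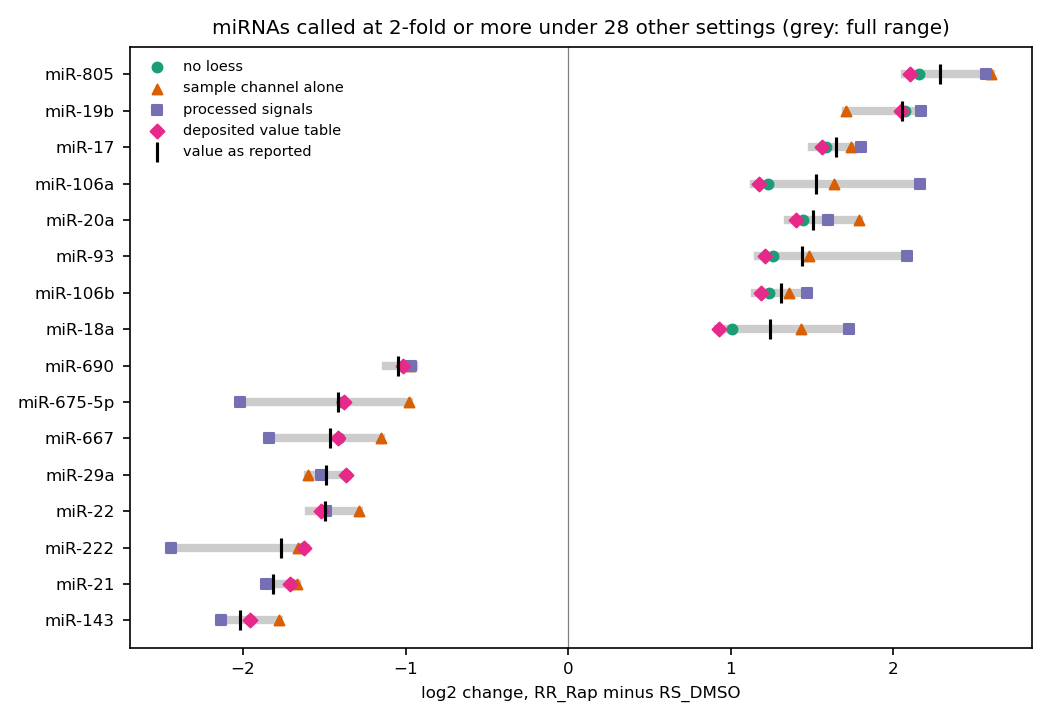
Log2 change, RR_Rap minus RS_DMSO (horizontal axis), of the 16 miRNAs called at 2-fold or more, as reported (black line), under 4 named settings (coloured points) and over all 28 other fits (grey bars). No bar crosses 0, and the processed signals give the widest departures, as for miR-222 at -2.45.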

How the data were processed

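miRNAs were measured on 2-colour Exiqon miRCURY LNA arrays, with each sample in Hy3 and the pool in Hy5 and no dye swap. Per the labels, RNA was extracted with an RNeasy Mini Kit, and the pool is described in 2 ways (equal parts of 3 conditions, or all of fewer samples than the series holds), so its makeup is unsettled. Per the file headers, the scanner's spot intensity values come from Agilent Feature Extraction (version 9.5.3.1) and were deposited without normalization between arrays. The authors' deposited value table holds log2 values that run as sample over pool when set against the scanner signals, with its centring and its summary over spots unknown, and was used as an alternative.

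In limma 3.58.1 (R 4.3.3), mean signals were corrected by normexp with an offset of 50, which shrinks changes of dim probes, then by loess within arrays with control spots at weight 0. Unflagged spots (4 per probe) were averaged, all 12 arrays were fitted with lmFit and eBayes, and p-values were adjusted over 417 probes. The software's filter for signal well above background removed no probe. Sequences were matched by name to RefSeq. The procedure was tested on simulated data. The miRNAs named are the 20 highest and 20 lowest calls without overlap between groups, called members of 36 lists, calls sharing a seed with at least 2 others, and the nearest to the threshold, with exceptions stated. The members and lists were chosen with earlier results of these data known. Lists for the testis cluster, miR-188~miR-532, the Hox clusters, miR-103/miR-107 and miR-148/miR-152 were added after values were seen. A further list of miRNAs is not reported here. A block for slide was not run, since each slide holds 1 array.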

Additional observations from a re-analysis of the deposited data

Results flagged for a closer look

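Among groups of 4 arrays, 166 were checked for 1 array far from the other 3 (by Dixon's test at 95%), and 17 stood out, where chance flags about 1 in 20. Array RR_Rap 2 accounted for most of those in the resistant group. It was the highest of its group, and so nearest to RS_DMSO, for miR-143 (-1.10, others -1.52 to -1.49), miR-22 (-1.11), miR-146a (-0.53), miR-199a-3p/miR-199b (-0.22) and miR-199a-5p (-0.27). It was the lowest for miR-374 (-0.29), miR-129-5p (-0.46), let-7b (-0.12) and miR-470 (0.053). RR_Rap 1 had miR-675-5p at -1.46, where the others had -1.55 to -1.54, and its highest negative control read 138.5 in Hy3, where the others read 131.2 to 131.5.

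Array RS_DMSO 3 was the lowest of its group for miR-378 (-1.17), miR-222 (0.035), miR-465a-5p (0.015), miR-199a-5p (-0.31) and miR-742 (-0.55). RS_DMSO 4 was the lowest for miR-19a (-0.79, others -0.47 to -0.44). Leaving out RS_DMSO 3 ended the call of miR-742 among these. Of 1595 probes on the arrays that were not designed for mouse, 380 stood above the negative controls and were not analysed further.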

How the results depend on the processing

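The count of called miRNAs was 97 as reported and 55 with the sample channel alone, with 46 in common. The other 15 settings gave 76 (the authors' deposited value table) to 102 (no loess), and leaving out 1 array gave 77 (without RR_Rap 4) to 107 (without RS_DMSO 4). Leaving out loess or using the processed signals moved the median change of all probes to 0.11 and -0.13. With the replicate number of the labels as a block 89 were called, 86 of them in common. Deviations of same-numbered arrays correlated at 0.152, 0.0045, 0.102 and 0.042, and 3 of 4 RR_Rap arrays correlated best with their own number. These values do not settle whether the numbers pair the samples, and the fit reported here took them as unpaired. The settings without a filter and with Aquantile scaling left the ratios unchanged, so no call could be lost in them. Of 78 called miRNAs named by rule, 31 kept direction and call throughout, 36 lost the call with the sample channel alone, and 62 kept it with any 1 array left out. Directions turned for 9. Without loess, miR-341 stood at 0.025, miR-470 at -0.028, miR-103 at -0.034, miR-124 at 0.031 and miR-302c at 0.071. With spike-in centring miR-341 stood at 0.013, miR-470 at -0.040, miR-103 at -0.046, miR-124 at 0.019 and miR-302c at 0.058. With median centring miR-470 stood at -0.11, miR-103 at -0.12, let-7f at -0.012, miR-34a at -0.033 and miR-532-5p at -0.068. In the value table miR-107 stood at -0.052, miR-470 at -0.22, miR-103 at -0.090, miR-34a at -0.047 and miR-532-5p at -0.13. With the sample channel alone miR-124 stood at 0.038. The cause was not tested. A slide block was not run. The number of arrays and the dim pool channel limit what small changes show.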
